A study of Mus musculus with 6 samples.

Results

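The guanylate-binding proteins (Gbp) are large interferon-induced GTPases related to the dynamins, and 8 mouse genes of the family, Gbp2 to Gbp9, are described here in cells sorted from melanomas. The members were taken by symbol from a deposited table of 54532 Ensembl gene IDs, each of the 8 symbols matched 1 ID, and all 8 had a mean of at least 1 FPKM (fragment counts corrected for transcript length and for depth), the level at which genes were tested. The tumours came from BRAFV600EPTEN-/- melanoma cells grown under puromycin, mixed with Matrigel and injected into C57BL/6 mice, and were taken on day 28. In 1 group the injected cells carried an active Gli2 (Gli2CA, 3 libraries), and in the other a non-targeted control (NTC, 3 libraries). The recipient mice were the same strain in both groups, and the change to Gli2 was made in the tumour cells. Cells were selected on CD11c alone, and the labels call them dendritic cells. Nothing in the labels tells whether each library is a mouse of its own, nor how many clones the tumour cells held. The p-values thus cover only how these 6 libraries vary, which may be technical in part.

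Interferon gamma, made by T and natural killer cells, is the strongest known inducer of the family, in part through the transcription factor Irf1, and type I interferon induces several members as well. The proteins assemble on the membranes of vacuoles that hold microbes and on lipopolysaccharide, and help to activate caspases of the inflammasome. Dendritic cells and macrophages are among the cells that express them.

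The genes lie in a pair of clusters in the GENCODE M21 annotation of GRCm38. On the plus strand of chromosome 3 are Gbp5 (142493978 to 142522344), Gbp7 (142530342 to 142550149), Gbp3 (142560026 to 142573209) and Gbp2 (142620602 to 142638008). On the minus strand of chromosome 5 are Gbp8 (105014150 to 105139540), Gbp9 (105077630 to 105139539), Gbp4 (105115767 to 105139586) and Gbp6 (105270702 to 105293698). The models of Gbp8, Gbp9 and Gbp4 overlap and have their 5′ ends close together, but any pair shares only 60 or 61 exonic bases. The same clusters hold Gbp2b and the pseudogene Gbp2-ps on chromosome 3 and Gbp10 and Gbp11 on chromosome 5, which are not among the 8 members.

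**Figure D1:**
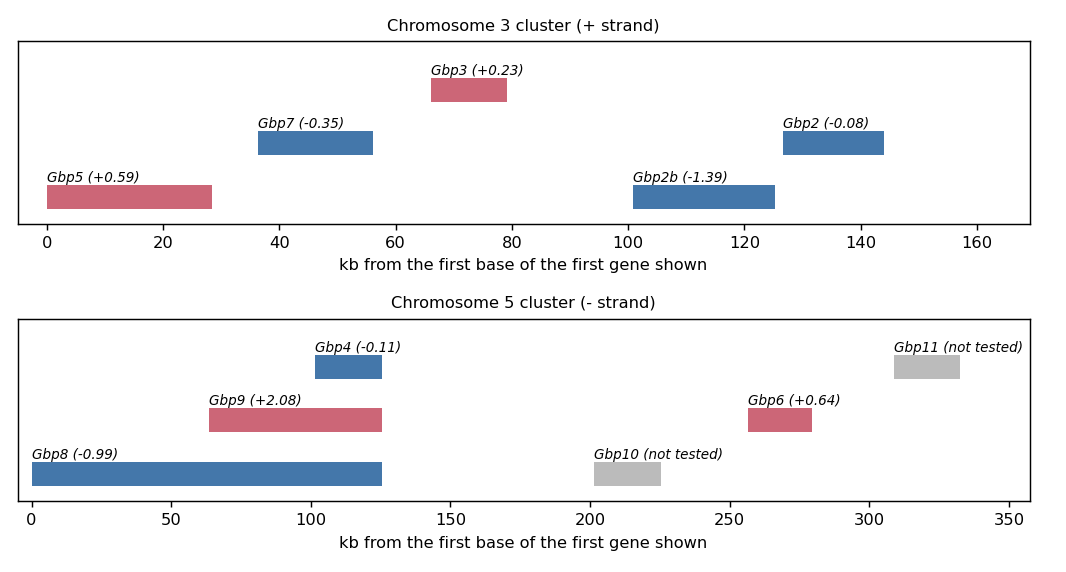
Gene models of the chromosome 3 and chromosome 5 clusters, drawn to scale in kb from the first base of the first gene shown, with bar length giving the extent of each gene and the number in brackets its log2 difference, Gli2CA minus NTC. Red bars have the higher mean log2 level in Gli2CA, blue bars the lower, and grey bars were below the level tested; both colours occur in both clusters.

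The chromosome 5 members are near copies of each other. Over the aligned bases of the longest coding sequences, with gaps left out, pairs among Gbp4, Gbp6, Gbp8 and Gbp9 were 89.6 to 92.9% identical. Pairs among Gbp2, Gbp3, Gbp5 and Gbp7 were 60.3 to 78.3% identical. The first 60 coding bases of the 3 overlapping models are given in lower case from their M21 transcripts, because Gbp8 and Gbp9 are the members whose libraries separated by group. Capitals mark the bases unlike Gbp8, 3 in Gbp9 and 2 in Gbp4. Pairs of these models share 60 or 61 exonic bases, and whether the bases alike here lie in that shared stretch was not examined. Bases read from the same stretch of genome would not be likeness between copies.
Gbp8: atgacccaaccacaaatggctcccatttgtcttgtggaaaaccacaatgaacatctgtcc
Gbp9: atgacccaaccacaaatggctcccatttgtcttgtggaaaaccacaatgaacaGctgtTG
Gbp4: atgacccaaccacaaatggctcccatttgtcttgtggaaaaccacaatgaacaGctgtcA
Of all words of 50 bases in the transcripts of a gene, 18.1% for Gbp8, 8.05% for Gbp9 and 7.53% for Gbp4 also occur in another Gbp gene. For Gbp6 the share was 49.9%, and 45.9% of its words occur in Gbp10, whose coding sequence is 98.4% identical. Values of the chromosome 5 members are therefore uncertain where the authors' counting, which is not given in the sources used here, split or dropped such reads.

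RefSeq promoters (GRCm38.p6, 250 bases before to 50 after the start site) were at hand for the chromosome 3 members and are shown because interferon acts on the family through elements there. Capitals mark TTTCNNTTTC or its reverse complement GAAANNGAAA, the interferon-stimulated response element bound by complexes that hold an Irf factor, and TTCNNNGAA, the gamma-activated site of interferon gamma-induced genes. All lie on the plus strand of chromosome 3.
Gbp2, chr3:142620413-142620712: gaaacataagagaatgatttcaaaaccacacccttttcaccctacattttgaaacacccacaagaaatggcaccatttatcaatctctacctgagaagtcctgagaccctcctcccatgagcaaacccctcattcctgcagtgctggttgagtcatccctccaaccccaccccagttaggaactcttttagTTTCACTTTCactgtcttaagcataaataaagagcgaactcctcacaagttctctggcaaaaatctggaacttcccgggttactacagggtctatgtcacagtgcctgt
Gbp3, chr3:142559794-142560093: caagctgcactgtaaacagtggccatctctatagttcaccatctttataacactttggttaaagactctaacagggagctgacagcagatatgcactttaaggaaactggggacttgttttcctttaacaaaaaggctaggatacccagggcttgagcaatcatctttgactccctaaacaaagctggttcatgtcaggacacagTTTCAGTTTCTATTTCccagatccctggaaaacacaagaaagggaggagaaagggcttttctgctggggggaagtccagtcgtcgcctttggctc
Gbp5, chr3:142496684-142496983: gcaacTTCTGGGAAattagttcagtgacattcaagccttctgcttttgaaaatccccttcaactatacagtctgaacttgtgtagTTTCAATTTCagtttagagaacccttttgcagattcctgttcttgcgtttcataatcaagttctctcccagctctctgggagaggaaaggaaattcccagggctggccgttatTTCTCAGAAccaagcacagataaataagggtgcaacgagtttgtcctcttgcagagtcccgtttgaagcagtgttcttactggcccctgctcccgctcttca
Gbp7, chr3:142530086-142530385: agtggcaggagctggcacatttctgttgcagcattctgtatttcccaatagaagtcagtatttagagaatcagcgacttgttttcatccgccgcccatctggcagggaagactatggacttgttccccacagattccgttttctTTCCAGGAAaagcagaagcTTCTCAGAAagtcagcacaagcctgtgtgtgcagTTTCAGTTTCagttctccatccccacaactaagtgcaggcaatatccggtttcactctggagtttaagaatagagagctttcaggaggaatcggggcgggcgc
Each of these promoters holds the response element, which began 59 bases upstream of the start site in Gbp2, 45 and 39 in Gbp3 as overlapping copies, 165 in Gbp5 and 53 in Gbp7. A second start site of Gbp3 has neither motif. Gbp5 and Gbp7 each hold 2 gamma-activated sites as well, and Gbp2 and Gbp3 hold none in this window. Among 32851 promoters of the same length, 3.44% hold the response element, 8.3% the gamma-activated site and 0.454% both. These are matches to letters and not shown to be bound here.

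NTC 1 and NTC 3 held fewer genes than the rest. Of the genes tested, 36.7% in NTC 1 and 30.3% in NTC 3 were under 0.5 FPKM, against 7.9 to 11.4% in the other 4 libraries. Depth, recovered from the steps of the FPKM values, was about 18780000 fragments in NTC 1 and 23160000 to 29130000 in the others. The part of library complexity in the values of NTC 1 and NTC 3 was not tested.

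All 8 members had reads in every library, and the summed level of the family overlapped between the 2 groups. FPKM added over the 8 members came to 747, 667 and 821 in NTC 1, NTC 2 and NTC 3 and to 782, 643 and 748 in Gli2CA 1, Gli2CA 2 and Gli2CA 3, or 745 ± 77.2 against 724 ± 72.2 (SD, n = 3 each). The 4 chromosome 3 members gave 568 ± 77.8 FPKM in NTC and 568 ± 66.9 in Gli2CA, and the 4 on chromosome 5 gave 177 ± 46.1 and 157 ± 35.6. Gbp2 alone made up 43.6% ± 9.0 of the family sum in NTC and 42.2% ± 4.86 in Gli2CA, and Gbp3 20.2% ± 3.23 and 24.3% ± 0.415.

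**Figure D2:**
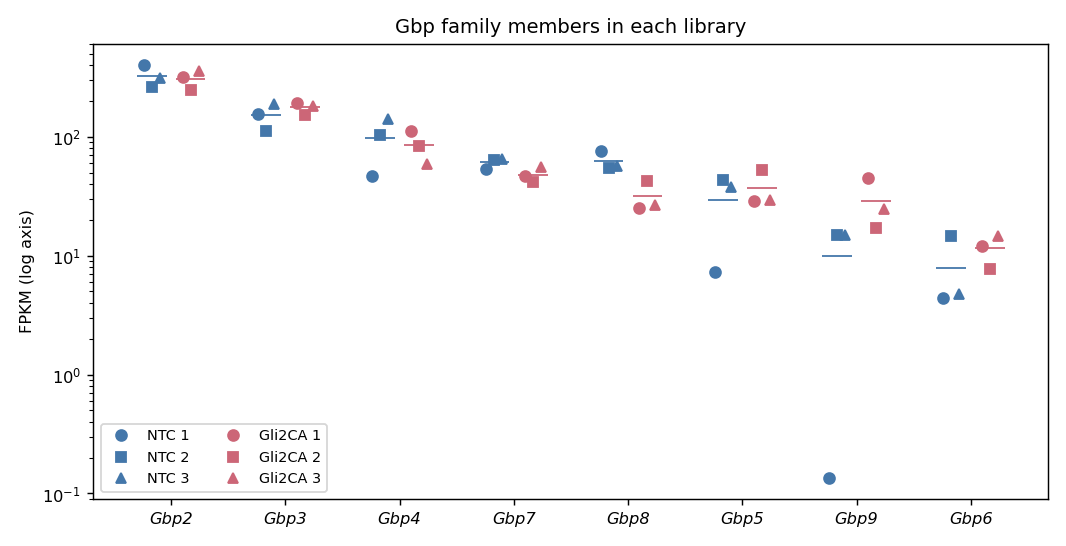
FPKM of the 8 members on a log axis, with 1 symbol per library and a horizontal line at each group mean (3 libraries each). The 3 Gli2CA libraries lie below the NTC libraries in Gbp8 and above them in Gbp9, the groups overlap in the other 6, and the lowest point is Gbp9 in NTC 1 at 0.134 FPKM.

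Ordered by mean FPKM over the 6 libraries the members ran Gbp2 (316), Gbp3 (164), Gbp4 (90.9), Gbp7 (54.3), Gbp8 (46.9), Gbp5 (33.2), Gbp9 (19.5) and Gbp6 (9.71). Gbp2 was above Gbp3 in 6 of 6 libraries with ranges apart, and Gbp3 was above Gbp4 in 6 of 6 with ranges that overlapped. Further down, neighbours were not separated beyond their spread. Gbp8 was above Gbp5 in all 3 NTC libraries and in 0 of 3 Gli2CA libraries.

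No Gbp gene differed past the threshold. By limma, fitted to log2(FPKM + 1) with Benjamini-Hochberg adjustment, 0 of 12266 genes reached an adjusted p of 0.05 (0%). At an unadjusted p under 0.05 there were 1304 genes (10.6%), with 7.82% of all genes higher and 2.81% lower in Gli2CA, and 1 of the 8 members, Gbp8, which was lower. Under quantile normalization 21 genes passed, none of them a Gbp member. Among them were Irf7, Ifit2, Ly6c2, Ms4a4c and Ighm, the genes of the lists used below that passed under that setting. Of the members 4 had the higher and 4 the lower mean log2 level in Gli2CA, where 59.7% of all genes tested had the higher. Their median log2 difference was 0.08, against 0.25 over all genes, and it was -0.05 without NTC 1, 0.32 without NTC 3 and -0.31 without both. Against that median Gbp5, Gbp6 and Gbp9 lay above and the other 5 below, and with quantile normalization, which brings the all-gene median to -0.03, Gbp3 lay above as well. The groups did not overlap in 2 of 8 members and in 16.6% of all genes. Two-sided exact permutation tests of 3 libraries against 3 cannot give a p below 0.1. Each log2 difference given below takes NTC from Gli2CA, on log2(FPKM + 1), and understates the change of low genes.

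Gbp2, needed in mice for control of Toxoplasma and a protein with a C-terminal lipid anchor, was the most abundant member. It stood at 404, 259.6 and 312 FPKM in NTC 1 to 3 and at 318, 246 and 356 FPKM in Gli2CA 1 to 3, with overlap. Its log2 difference was -0.08 ± 0.25 (SE, limma adjusted p = 0.925), with a 95% interval of -0.66 to 0.50. It was 0.09 without NTC 1 and 0.07 without Gli2CA 2.

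Gbp3, whose cluster on chromosome 3 is needed as a whole in mice for resistance to Toxoplasma, came next. Its levels were 156, 111 and 189 FPKM in NTC and 193, 154 and 182 in Gli2CA, again with overlap. The log2 difference was 0.23 ± 0.29 (SE, limma adjusted p = 0.771, 95% interval -0.42 to 0.89).

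Gbp7, reported in mice to bring subunits of the phagocyte NADPH oxidase to microbe-containing vacuoles, had 53.3, 63.9 and 65.4 FPKM in NTC and 46.6, 41.3 and 55.6 in Gli2CA. Only the lowest NTC library lay within the Gli2CA range, and the log2 difference was -0.35 ± 0.35 (SE, limma adjusted p = 0.724, 95% interval -1.15 to 0.46).

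Gbp5, also lipid-anchored and linked to inflammasome assembly, was at 7.23 FPKM in NTC 1, at 43.4 and 37.9 in NTC 2 and NTC 3, and at 29.02, 52.3 and 29.4 in the Gli2CA libraries. The log2 difference was 0.59 ± 0.72 (SE, limma adjusted p = 0.769, 95% interval -1.05 to 2.23), and without NTC 1 it was -0.19, so its sign rested on that library.

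Gbp8 was lower in every Gli2CA library than in any NTC library. It was at 75.1, 54.9 and 56.7 FPKM in NTC 1 to 3 and at 25.1, 42.4 and 26.9 FPKM in Gli2CA 1 to 3. These came from about 1601 to 3578 reads per library. The NTC mean was 62.3 ± 11.2 FPKM and the Gli2CA mean 31.5 ± 9.52 FPKM (SD, n = 3 each), a ratio of 1.98, and the log2 difference was -0.99 ± 0.41 (SE, limma adjusted p = 0.447, 95% interval -1.92 to -0.05). Non-overlap in this direction was seen in 5.79% of all genes tested, and 1 of the 8 members showed it. The exact permutation p was 0.1, the smallest possible. Leaving out 1 library at a time gave log2 differences of -1.21 to -0.84.

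Gbp9 showed the opposite order. It was at 0.134, 14.9 and 14.9 FPKM in NTC 1 to 3 and at 45.4, 17.1 and 24.7 FPKM in Gli2CA 1 to 3. All 3 Gli2CA libraries lay above the NTC libraries, as they did in 10.9% of all genes tested, though Gli2CA 2 was close to NTC 2 and NTC 3. The log2 difference was 2.08 ± 1.10 (SE, limma adjusted p = 0.519, 95% interval -0.43 to 4.59). The value in NTC 1 came from 8 reads, where the other libraries had 1094 to 4191, and without NTC 1 the difference was 0.81.

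The sum of Gbp8 and Gbp9 was steadier than either. It came to 75.3, 69.8 and 71.6 FPKM in NTC 1 to 3 and to 70.5, 59.5 and 51.6 in Gli2CA 1 to 3, which overlap. Gbp8 was 559, 3.69 and 3.81 times Gbp9 in the NTC libraries and 0.554, 2.48 and 1.09 times in the Gli2CA libraries. These ratios did not overlap, but they are built from both differences above and add no separate evidence. Of the 50-base words of Gbp9, 4.42% occur in Gbp8. The part of read assignment between these near copies was not tested.

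**Figure D3:**
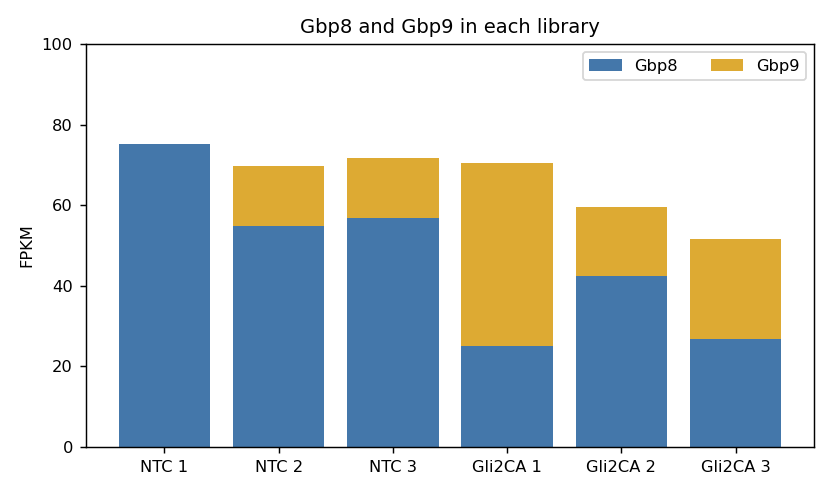
FPKM of Gbp8 (blue) and Gbp9 (yellow) stacked for each of the 6 libraries on an axis that starts at 0. The total lies between 51.6 and 75.3 FPKM, while the Gbp8 part is 25.1 to 42.4 in the Gli2CA libraries and 54.9 to 75.1 in the NTC libraries.

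Gbp4, from the same stretch of chromosome 5, ranged from 46.9 FPKM in NTC 1 to 140.4 in NTC 3, with 104 in NTC 2. The Gli2CA libraries, at 113, 83.0 and 58.6 FPKM, lay wholly inside that range, and the log2 difference was -0.11 ± 0.47 (SE, limma adjusted p = 0.945, 95% interval -1.19 to 0.97). It was 0.23 without NTC 3, 0.01 without NTC 2 and 0.13 without Gli2CA 3, and -0.56 without NTC 1.

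Gbp6 was the least abundant member, at 4.36, 14.6 and 4.73 FPKM in NTC and 12.1, 7.78 and 14.7 in Gli2CA. The log2 difference was 0.64 ± 0.76 (SE, limma adjusted p = 0.765, 95% interval -1.11 to 2.39), and it was 1.14 without NTC 2 and 0.37 without NTC 1. Its copy Gbp10, below the level tested, came from 1, 3 and 1 reads in the NTC libraries and from 116, 158 and 8 in the Gli2CA libraries, or 1.88, 2.82 and 0.148 FPKM in the latter. All 3 Gli2CA libraries were above the NTC libraries, as in 10.9% of all genes tested, though the NTC and Gli2CA 3 values rest on few reads. The part of reads shared with Gbp6 in the Gbp10 values was not tested.

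Gbp2b, the gene long called Gbp1 in mice and a neighbour of Gbp2, had 58.8, 41.8 and 27.02 FPKM in NTC and 2.83, 35.2 and 27.5 in Gli2CA. Its log2 difference of -1.39 ± 0.87 (SE, limma adjusted p = 0.589) rested on Gli2CA 1, without which it was -0.37. Gbp11, annotated as a polymorphic pseudogene, stayed at or under 1.27 FPKM, and Gbp2-ps was listed at 0 in all 6 libraries.

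**Figure D4:**
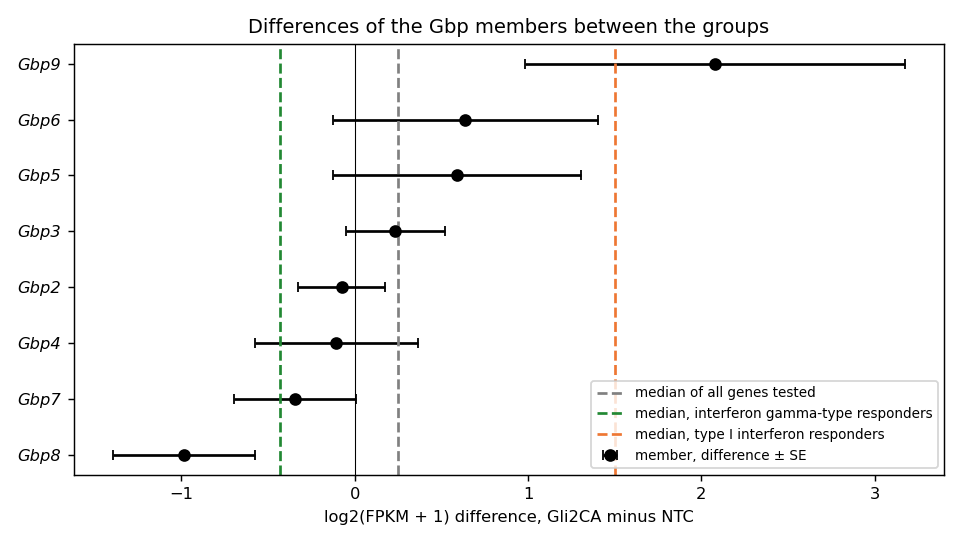
Log2(FPKM + 1) differences of the 8 members, Gli2CA minus NTC, with bars of 1 SE (3 libraries a group) and dashed lines at the medians of all genes tested (0.25), of 13 interferon gamma-type responders (-0.43) and of 16 type I interferon responders (1.5). Gbp8 lies lowest at -0.99 and Gbp9 highest at 2.08, and the other 6 lie between -0.35 and 0.64.

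The members did not share 1 pattern across the libraries. Pearson r between members over the 6 libraries ran from -0.87 (Gbp2 with Gbp5) to 0.82 (Gbp5 with Gbp9). The latter turned to -0.75 over the 5 libraries without NTC 1, while Gbp8 with Gbp9 was -0.81 with that library and -0.90 without it. The closest member was Gbp3 for Gbp2 and the reverse (r = 0.47, and 0.72 without NTC 1), and Gbp5 for Gbp4 (0.69, and 0.14 without it). It was Gbp9 for Gbp6 (0.68, and 0.41 without it), and Gbp7 for Gbp8 and the reverse (0.40, and 0.52 without it). The libraries share depth and complexity across members, and 6 points give such values no more than descriptive use. The mean log2 level of the 8 members was 4.90, 5.85 and 5.84 in NTC 1 to 3 and 5.90, 5.69 and 5.76 in Gli2CA 1 to 3, so NTC 1 stood apart although its summed FPKM did not. Among 12246 other genes Sppl2b (r = 0.998), C1qtnf12 (0.998), Pigs (0.998), Senp3 (0.996) and Las1l (0.995) were most like that mean over the 6 libraries. Mrpl38 (-0.997), Mrpl51 (-0.997) and C330011M18Rik (-0.994) were most unlike it. The 5 most alike stood at 0 to 0.170 FPKM in NTC 1, so the likeness follows that library.

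Genes that regulate the family differed in direction. None of 10 regulators passed, and 6 had the higher and 4 the lower mean log2 level in Gli2CA. Over all genes tested 59.7% had the higher, the share to set beside the counts of this and the later lists. In 3 regulators all Gli2CA libraries lay above the NTC libraries, where 10.9% of all genes tested do so. In 3 they all lay below, where 5.79% do so. The median log2 difference of the regulators was 0.10. That median was -0.08 without NTC 1 and -0.05 without Gli2CA 1. Irf1, which acts at Gbp promoters, had 503, 621 and 631 FPKM in NTC and 424, 463 and 406 in Gli2CA, with the Gli2CA libraries all lower (log2 difference -0.43, limma adjusted p = 0.459). Irf8 and Ciita, the latter the interferon gamma-induced activator of MHC class II genes, were also lower in each Gli2CA library, at -0.77 and -0.92 on the log2 scale (limma adjusted p = 0.350 and 0.373). Stat2 and Irf7, which carry the type I interferon response, were higher in each Gli2CA library, at 1.11 and 1.30 (limma adjusted p = 0.303 and 0.182). Under quantile normalization Irf7 passed (limma adjusted p = 0.0405). Irf1 was picked after its values were seen.

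Interferon-induced genes outside the family also differed in direction. All 16 type I interferon responders had the higher mean log2 level in Gli2CA, 12 of them without overlap where 10.9% of all genes do so, with a median log2 difference of 1.5 and 0 passing the test. Ifit2, which binds viral RNA, had 16, 18.04 and 6.63 FPKM in NTC and 149, 106 and 175 in Gli2CA (log2 difference 3.39, limma adjusted p = 0.178). Ifit2 and Irf7 were the members of this list that passed under quantile normalization, Ifit2 with a limma adjusted p of 0.0312. Oasl1 was at 17.7 ± 11.5 FPKM in NTC and 127 ± 54.7 in Gli2CA, and Ifi44 at 2.75 ± 1.52 and 27.3 ± 6.85. Of 13 interferon gamma-type responders tested, 10 had the lower mean, 6 of them without overlap where 5.79% of all genes do so, and 3 the higher, all 3 without overlap, with a median of -0.43 and 0 passing. The mean level of these 13 genes overlapped, at 7.35 to 7.42 in NTC and 7.24 to 7.42 in Gli2CA. The tryptophanyl-tRNA synthetase gene Wars had 166 ± 50.2 FPKM in NTC and 56.4 ± 7.0 in Gli2CA (SD, n = 3 each), while Ly6a had 1412 ± 44.6 and 2664 ± 576. Nos2, the inducible nitric oxide synthase, was read at 22.8, 19.2 and 2.05 FPKM in Gli2CA and was at 0, 0 and 0.0157 in NTC. Ido1, a further responder of this list, was listed at 0 in all libraries. The Gbp median of 0.08 lay between the medians of these lists, and no test was made of the difference. The signs of both medians held under median-of-ratios scaling and quantile normalization. Irf7, Irf1, Ciita, Socs1, Mx1 and Mx2 each stand in 2 lists.

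**Figure D5:**
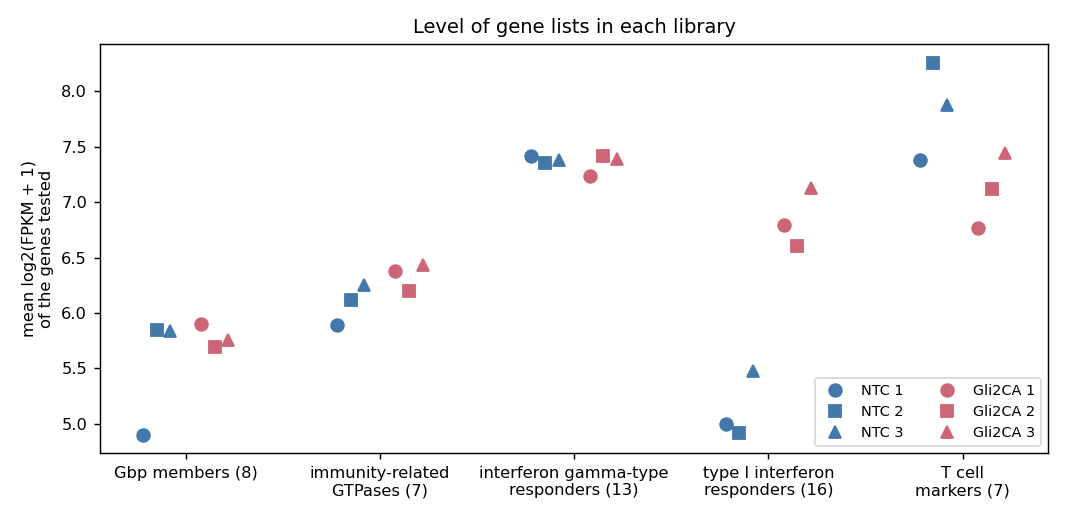
Mean log2(FPKM + 1) of the tested genes of 5 lists, 1 symbol per library. The type I responders lie at 4.92 to 5.48 in NTC and 6.60 to 7.13 in Gli2CA without overlap, while the Gbp members overlap, with NTC 1 lowest at 4.90.

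The related immunity-related GTPases, which act with the Gbp proteins at vacuoles, had a median log2 difference of 0.21 over 7 tested genes (5 higher, 2 lower, 0 passing). Ifi47 had 307 ± 15.5 FPKM in NTC and 378 ± 29.06 in Gli2CA, and Irgm2 had 7.82, 26.9 and 14.0 FPKM in NTC and 37.6, 12.3 and 29.4 in Gli2CA, with overlap. The other dynamin-like GTPases Mx1, Mx2 and Atl3 all had the higher mean log2 level in Gli2CA, with a median of 1.47 and 0 passing.

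Upstream of the family, interferon gamma ligand, receptor and signalling genes had a median of 0.07 (5 of 8 higher, 4 of 8 under median-of-ratios scaling, 0 passing), or -0.05 without Gli2CA 3. Ifng itself was read at 78.6, 164 and 49.4 FPKM in NTC and 79.5, 51.7 and 70.7 in Gli2CA, with overlap, and was picked after its values were seen. The 3 genes of the type I receptor had a median of 0.16 (2 higher, 0 passing), and Ifnar1 had a log2 difference of 1.06 with overlap.

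Partners of the proteins were also counted. Inflammasome and pyroptosis genes had 9 of 11 members higher (8 under median-of-ratios scaling and 7 under quantile normalization), a median of 0.64 and 0 passing. In 3 of them the Gli2CA libraries were higher without overlap, where 10.9% of all genes were, and the median was 1.27 without NTC 2 and 0.36 without NTC 3. Casp4, which encodes the lipopolysaccharide sensor caspase-11, had 33.4, 46.5 and 29.5 FPKM in NTC and 77.1, 78.2 and 91.8 in Gli2CA (log2 difference 1.18, limma adjusted p = 0.303). Il1b, the cytokine that caspase-1 matures, was at 489 ± 369 FPKM in NTC and 2455 ± 563 in Gli2CA. Gsdmd, the pore former cut by inflammatory caspases, had 134, 344 and 162 FPKM in NTC and 366, 329 and 375 in Gli2CA, with overlap. NADPH oxidase genes had a median of 0.08 (4 of 6 higher, 3 of 6 under median-of-ratios scaling, 0 passing), or -0.05 without NTC 2, and the subunit gene Cybb was at 161 ± 96.3 FPKM in NTC and 307 ± 64.2 in Gli2CA. The ubiquitin-like conjugation genes, which direct Gbp proteins to vacuoles, had a median of 0.39 (11 of 12 higher, 10 under median-of-ratios scaling, 0 without overlap, 0 passing), or 0.18 without NTC 1. The last list held enzymes that attach the lipid anchor or act on the protein after attachment. Rce1 and Icmt, of the latter kind, were the 2 higher in Gli2CA. The list had a median of -0.22 (2 of 5 higher, 0 passing), a value whose sign was not stable. It was 0.49 with a pseudocount of 0.1, 1.07 by voom, 0.33 without Gli2CA 2, 0.17 without NTC 2, 0.03 without NTC 1 and -0.93 under quantile normalization.

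Marker genes of several cell types were read in the sorted cells. The dendritic genes Itgax, Flt3, Zbtb46 and H2-Ab1 were present in all 6 libraries. Itgax, which encodes CD11c, was at 62.3 to 117.5 FPKM in NTC and 118.5 to 224 in Gli2CA. These do not overlap, as in 10.9% of all genes tested, but NTC 2 and Gli2CA 3 were close at 117.5 and 118.5. The other 3 dendritic genes had the lower mean log2 level in Gli2CA. All 6 cDC1 markers and all 7 T cell markers had the lower mean log2 level in Gli2CA, and all 5 monocyte markers the higher, under each scaling, with medians of -1.35, -0.69 and 1.59. None passed the test, but the monocyte markers Ly6c2 and Ms4a4c did under quantile normalization. Summed cDC1 markers were at 366 to 604 FPKM in NTC and 104 to 183.5 in Gli2CA, and summed T cell markers at 1347 to 2390 and 819 to 1305. Summed monocyte markers were at 660 to 1081 FPKM in NTC and 2394 to 3087 in Gli2CA. Medians were -0.49 for cDC2, 0.10 for macrophage, 0.95 for NK cell, -0.01 for neutrophil and -0.69 for the 2 B cell markers tested, and -0.24 for the dendritic genes. Under quantile normalization the NK cell median was 0.16 and the B cell median -1.21, with the B cell gene Ighm lower past the threshold. Summed neutrophil markers reached 244 FPKM in Gli2CA 3, against 11.7 to 76.8 in the others. Summed fibroblast markers reached 3361 FPKM in NTC 2, against 1.41 to 327 in the others, and endothelial markers summed to 0.0972 to 26.4. Of 6 melanoma markers Mlana, Dct and Tyr were listed at 0, and the sum was 0 to 1.35 FPKM in NTC and 18.02 to 24.1 in Gli2CA. Most of the Gli2CA sum was Sox10, at 19.8, 12.1 and 18.4 FPKM in Gli2CA 1 to 3 and at 0 in NTC. In such bulk samples fewer cells of a type and less RNA per cell cannot be told apart, and the part of cell makeup in the Gbp levels was not tested.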

How the data were processed

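Cells selected on CD11c from day 28 tumours were sequenced by the submitters from poly-A RNA with the NEBNext Ultra II kit, per the labels' protocols. The authors deposited 1 table of FPKM values, 1 column per library, per the file headers and its name. The aligner, counting tool, strand setting and genome build were not given in the sources used here. Columns were matched by sample description, and libraries are numbered by sample title, so NTC 2 and NTC 3 are numbered 3 and 4 in the descriptions.

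Symbols came from a table that named 54409 IDs, and loci and lengths from GENCODE M21, which held 54495. Multiplied by mean transcript length, 97.0 to 98.4% of low values were whole reads within 0.05, which gave depth. At 3 reads or fewer counting error dominates.

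Differences were tested with limma 3.58.1 (R 4.3.3), fitted to log2(FPKM + 1), group as the only term, trended variances, two-sided, Benjamini-Hochberg over 12266 genes whose mean reached 1 FPKM, threshold 0.05. It was also run on simulated data as a check of the code, and no result here draws on that run. Alternatives were another pseudocount (0.1), filters, scalings, variance models and weights, blocks by replicate number, voom on recovered reads and left-out libraries. Coding sequences were aligned with Biopython 1.88, and figures drawn with matplotlib 3.10.9. Members and lists were chosen with earlier results of these data known. Named were the Gbp genes, up to 4 genes with the smallest p per list, and genes said to be picked after their values were seen. Irgb10 matched no symbol. All 6 libraries entered the fit. 1 regulator is not reported here by name.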

Additional observations from a re-analysis of the deposited data

How the results depend on the processing

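The count of genes past the threshold was 0 with every setting but quantile normalization, which gave 21, Irf7 (limma adjusted p = 0.0405) and Ifit2 (0.0312) among them. None of the 8 Gbp members passed in any of 17 alternatives, and their median ran from -0.31 (without both NTC 1 and NTC 3) to 0.36 (replicate block by description number). Gbp8 stayed lower in Gli2CA throughout, with log2 differences of -1.27 to -0.82, and Gbp9 higher, with 0.81 to 3.02, 0.81 being without NTC 1. Gbp3 (0.03 to 0.65) and Gbp7 (-0.46 to -0.19) also kept their sign. Leaving out 1 library at a time, the log2 difference ran from -0.23 to 0.09 in Gbp2, from -0.56 to 0.23 in Gbp4 and from -0.19 to 1.03 in Gbp5. Without both NTC 1 and NTC 3, which leaves 1 control library assumed to vary like the Gli2CA group, Gbp2 was at 0.22, Gbp5 at -0.28, Gbp6 at -0.36 and Irgm2 at -0.16. With a replicate block by description number Gbp2 was at 0.06 and Gbp4 at 0.22. Each title number holds 1 library of each group, so a replicate block by title number cannot change a log2 difference. The Gbp8 difference was thus -0.99 with it as well, while its limma unadjusted p was 0.0875, and 0 genes passed. Same-numbered libraries deviated from their group means with correlations of -0.0418 to -0.00178 by title and -0.0641 to -0.0418 by description. Differently numbered libraries by title had -0.0641 to 0.0743, so these values cannot tell whether the numbers pair libraries. Leaving out 1 library at a time, Ifng ran from -0.77 to 0.09 (without NTC 2). The cause of these turns was not tested. The median of all genes moved from 0.25 to -0.03 under quantile normalization, and relative to it Gbp3 went from -0.02 to 0.31. Few reads lie behind Gbp9 in NTC 1 (8), Gbp10 (1 to 158) and Gbp11 (0 to 59).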
